A study of Mus musculus with 60 samples.

Results

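Prefrontal cortex of 25-day-old C57BL/6J mice labelled heterozygous (HT) for Trip12 was compared between 2 drugs, with 10 fluoxetine libraries set against 10 lithium libraries. These 20 libraries were chosen by genotype and treatment alone, out of 60 libraries in the series. Each drug group held 5 libraries from females and 5 from males, sex was a block in the test, and TruSeq Stranded mRNA libraries had been made from total RNA. All of these mice were labelled with the same Trip12 genotype, whose allele the labels do not describe, and had received their drug through the milk of the dam on postnatal days 3 to 24. Further libraries were 10 from HT mice given vehicle (5 of each sex) and 20 from wild-type (WT) mice of the same strain, age and route, 10 on fluoxetine and 10 on lithium. Animal and litter are not named in the labels, and a p-value here therefore reflects only sample-to-sample spread, which may be technical.

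Fluoxetine is a selective serotonin reuptake inhibitor: it blocks the serotonin transporter, so that serotonin released by raphe axons stays longer around cortical neurons. Lithium, used in bipolar disorder, blocks glycogen synthase kinase 3 (GSK3), a kinase that marks beta-catenin for degradation in the Wnt pathway, and inositol monophosphatase, an enzyme that recycles inositol for phosphoinositide signalling. Trip12 encodes a ubiquitin ligase of the HECT family. In the mouse, the weeks before weaning are those in which cortical synapses mature and oligodendrocytes begin to wrap axons with myelin.

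Trip12 itself (GRCm38 chr1:84721189-84840516, minus strand) had 6219, 6408 and 6632 normalized counts (lowest, median and highest) in HT fluoxetine libraries, 5489, 6003 and 6332 in HT lithium libraries and 5720.5, 6137 and 6953 in HT vehicle libraries. WT libraries had 4394, 5989 and 6362 under fluoxetine and 5179, 5683 and 5956 under lithium. The medians of the libraries labelled HT were thus not below those of WT, so this transcript does not check the genotype labels, and the fluoxetine and lithium libraries labelled HT differed by 0.10 ± 0.03, adjusted p = 0.025, a call lost with quantile normalization, a replicate block or the length slope described below. One WT library stood apart: WT fluoxetine male 2 had a length slope, defined below, of -0.20, against -0.06 to 0.08 in the libraries labelled HT. All 14 cortical excitatory neuron markers were measured, and the choroid plexus marker Ttr had a median under 10 normalized counts. Olfactory bulb markers summed to 3766 to 13930 normalized counts in fluoxetine libraries and 3925 to 23499 in lithium libraries, a wide range within each drug. Recovered reads per library, in units of 1e6 reads, ran from 32.8 to 36.6 under fluoxetine and 26.6 to 35.2 under lithium. In males they averaged 34.1 ± 1.5 under fluoxetine and 29.8 ± 3.07 under lithium (SD, n = 5 each, two-sided exact permutation p = 0.024, adjusted over 6 tests 0.071).

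Fluoxetine and lithium left the HT cortex with many small differences. Of 17153 genes tested, 1948 (11.4%) were higher and 2025 (11.8%) lower under fluoxetine, 3973 (23.2%) in all, at limma's Benjamini-Hochberg adjusted p under 0.05. The median size of a called change was 0.23 on the log2 scale, against a median SE of 0.07. At least 1.5-fold changes numbered 187, and at least 2-fold changes 30. In 173 genes (1.01% of those tested) the 10 fluoxetine libraries and the 10 lithium libraries did not overlap, with fluoxetine above in 64 and below in 109. Most nuclear genes for ribosomal proteins and for the respiratory chain were called lower under fluoxetine, and most markers of myelin and of cortical excitatory neurons were called higher. In what follows, 3 counts after a gene are the lowest, median and highest normalized count of 10 libraries, and a fold change is fluoxetine over lithium on the log2(normalized count + 1) scale, ± SE, which understates the change of low genes. In bulk RNA, fewer cells of a type and less RNA per cell cannot be told apart.

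Cytosolic ribosomal protein genes, which encode the structural proteins of the ribosome, were the list with the largest share of called members. Of 76 members, 59 fell and 0 rose under fluoxetine, and the list's median log2 fold change was -0.25, against -0.00 over all genes. Summed over the list, fluoxetine libraries held 204125 to 237296 normalized counts and lithium libraries 230112 to 281969. Rps29 (chr12:69157722-69159186, small subunit) had 1647, 2336 and 2858 normalized counts in fluoxetine libraries, against 3313, 3659.7 and 4393 in lithium libraries. All 10 fluoxetine libraries lay below all 10 lithium libraries, a log2 fold change of -0.68 ± 0.07, adjusted p = 1e-05. Rpl39, of the exit tunnel of the large subunit, had 542, 663 and 853 under fluoxetine and 878, 977 and 1101 under lithium (-0.60 ± 0.06, adjusted p = 2.4e-06). Rpl37a (-0.49 ± 0.05, adjusted p = 5.8e-06), of the large subunit, and Rps19 (-0.45 ± 0.05, adjusted p = 1.4e-05), of the small one, also had groups that did not overlap. Rplp1, a protein of the ribosomal stalk, overlapped slightly at 2984, 4091 and 5792 under fluoxetine and 5255, 7164 and 8440.2 under lithium (-0.77 ± 0.09, adjusted p = 1.7e-05). Rpl22l1, a paralog of Rpl22 outside the list, had 236, 346 and 438 under fluoxetine and 536, 583 and 675 under lithium, with no overlap (-0.79 ± 0.09, adjusted p = 1.1e-05). Rpl10 had 437, 581 and 1009.9 under fluoxetine and 728, 1151 and 1353 under lithium (-0.82 ± 0.14, adjusted p = 0.00027). Many ribosomal protein genes have near-identical pseudogene copies, so the split of reads between them is uncertain. The pseudogene Rpl14-ps1 stood the other way at 162, 190.1 and 232 in fluoxetine libraries and 0, 81.0 and 114 in lithium libraries (2.02 ± 0.55, adjusted p = 0.011), a call lost with depth or the length slope as a covariate, and Ptges3-ps had 26.6, 77.4 and 145 and 0, 38.8 and 94.9 in the same order (2.27 ± 0.81, adjusted p = 0.046). The Ptges3-ps call was lost by DESeq2, by edgeR, with a pseudocount of 0.5, with no filter on low values, in a fit over 60 libraries, with depth or the length slope as a covariate, and in 12 of the 20 omissions of 1 library. The start region of Rpl39, the list member with the smallest p that the RefSeq promoter table holds, is shown as an example of the sequence at which these genes begin (RefSeq, GRCm38.p6 chrX:37085173-37085472, minus strand, 250 bases before to 50 after the start site, no motif letters in capitals because 0 of the 4 motifs searched matched).
Rpl39: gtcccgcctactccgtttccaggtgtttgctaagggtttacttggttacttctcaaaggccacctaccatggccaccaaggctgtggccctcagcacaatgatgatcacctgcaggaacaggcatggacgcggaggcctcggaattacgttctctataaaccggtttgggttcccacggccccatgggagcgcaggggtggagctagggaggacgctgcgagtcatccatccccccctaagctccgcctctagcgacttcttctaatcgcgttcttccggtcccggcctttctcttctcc

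Nuclear-encoded oxidative phosphorylation genes, which supply subunits of the respiratory complexes and ATP synthase, moved in the same direction. Of 75 tested members, 55 fell and 0 rose, with a median log2 fold change of -0.27. Atp5e, the epsilon subunit of ATP synthase, had 606, 719.8 and 780.3 normalized counts in fluoxetine libraries and 900.5, 1021 and 1191 in lithium libraries. The groups did not overlap (-0.53 ± 0.05, adjusted p = 2.4e-06). Atp5j, coupling factor 6 of the same enzyme, had 1923, 2121 and 2341 under fluoxetine and 2481, 2665 and 2907 under lithium (-0.34 ± 0.04, adjusted p = 7.4e-06). Cox7a2, a subunit of cytochrome c oxidase, had 1694, 2042 and 2312 under fluoxetine and 2485, 2798 and 3193 under lithium (-0.48 ± 0.05, adjusted p = 7e-06). Cyc1, cytochrome c1 of complex III, reached 3549 in the highest fluoxetine library, against 3490.5 in the lowest lithium library, a slight overlap (-0.41 ± 0.04, adjusted p = 7e-06). Among transcripts made by the mitochondrial genome itself 3 of 13 rose and 0 fell, with a median of 0.14. Their called share of 23.1% was near the 23.2% over all genes. The 3 that rose were mt-Nd1 (0.31 ± 0.10, adjusted p = 0.033), mt-Nd2 (0.30 ± 0.10, adjusted p = 0.031) and mt-Nd5 (0.30 ± 0.10, adjusted p = 0.034), all subunits of complex I. That count was 0 with a replicate block, with depth or the length slope described below as a covariate, and without any one of HT fluoxetine female 4, fluoxetine males 2 and 3, lithium female 3 and lithium males 1 and 3. Proteasome subunits had 11 of 38 lower, 1 higher and a median of -0.03. Their called share was 31.6%, against 23.2% over all genes. Psmb5, a catalytic subunit, fell (-0.26 ± 0.04, adjusted p = 0.00022). The lower proteasome count was 2 with the length slope as a covariate.

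**Figure D1:**
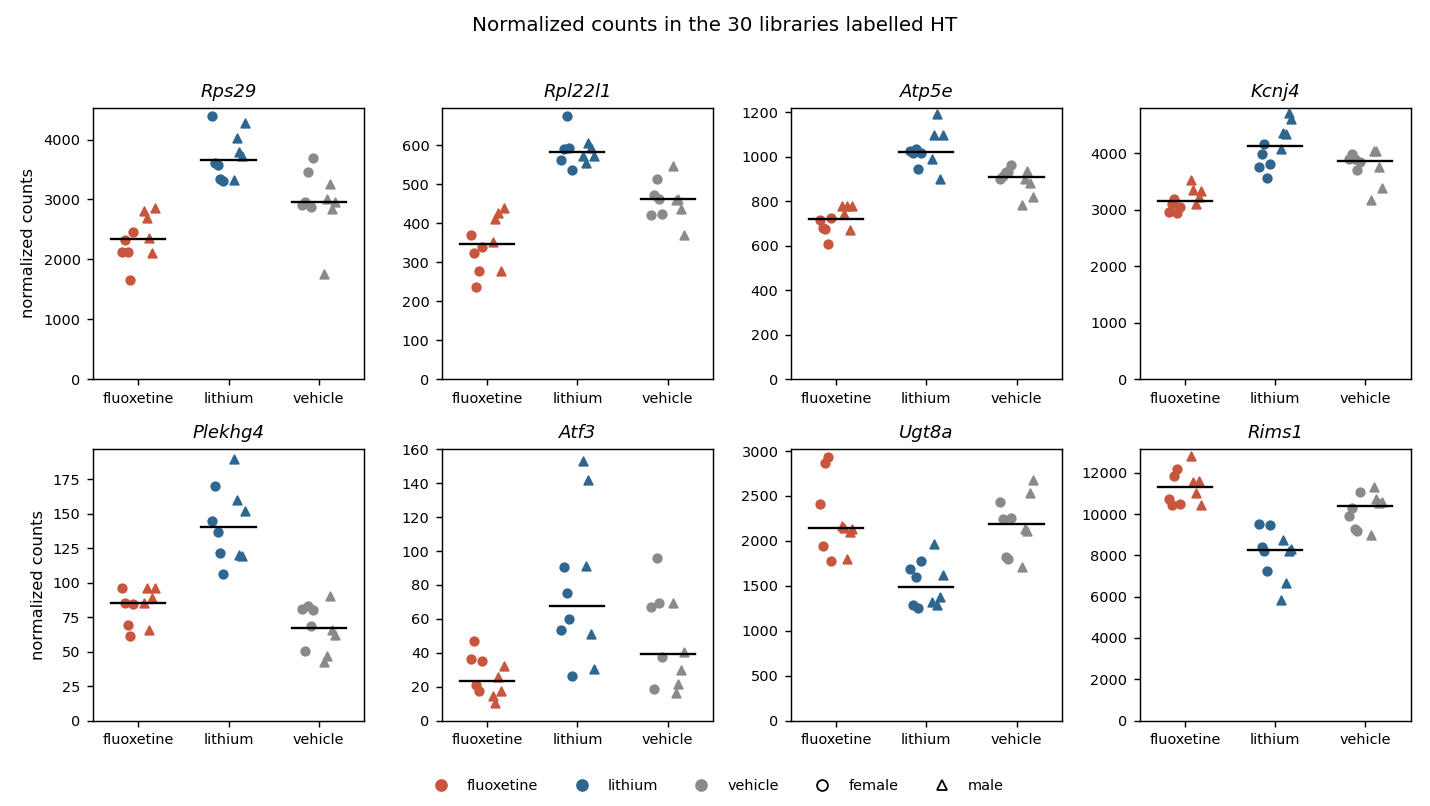
Normalized counts (y axes, from 0) of 8 genes in each of the 30 libraries labelled HT, by treatment, with females as circles, males as triangles and the median of 10 libraries as a bar. Rps29, Rpl22l1, Atp5e, Kcnj4 and Plekhg4 lie lower under fluoxetine than under lithium with no overlap, Rims1 lies higher with no overlap, and Atf3 and Ugt8a overlap.

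The summed exon length of a gene went along with these calls. This length joins all annotated exons of a gene and is not that of a single transcript. In each library, centred log2 levels of 12473 genes were regressed on log2 summed exon length, and the slope per doubling of length averaged 0.05 ± 0.02 under fluoxetine and 0.00 ± 0.02 under lithium in females (SD, n = 5 each, two-sided exact permutation p = 0.024, adjusted 0.071). In males it averaged 0.03 ± 0.01 under fluoxetine and -0.02 ± 0.04 under lithium (exact permutation p = 0.04, adjusted 0.079). The groups overlapped, since lithium female 4 and lithium male 1 had slopes of 0.04. Among genes with over 8 kb of exon, 24.8% were higher and 5.27% lower under fluoxetine. Among genes under 1 kb, 5.11% were higher and 17.2% lower, and among genes of 1 to 2 kb 4.41% and 17.1%. Ribosomal protein genes had a median summed exon length of 1806 bases and nuclear-encoded respiratory genes 1756 bases, both between 1 and 2 kb. With each library's slope as a covariate, chosen after the data had been seen, 1645 genes were called, 21 ribosomal protein genes and 28 respiratory genes still fell, and the medians of these lists were -0.14 and -0.13. Of 114 named genes called in HT, 51 lost their call with this covariate, among them Alkal2, Atf5, Btbd17, Chac1, Dusp1, Ermn, Gadd45b, Grik2, Hsdl1, Htr1a, Htr5b, Mki67, Nfe2l3, Nlgn1, Pagr1a, Trim47, Vgf, Zfp804b, Znf41-ps and others named beside their values. With each library's depth as a covariate 15 lost it, among them Dusp1, Pagr1a and Top2a.

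**Figure D2:**
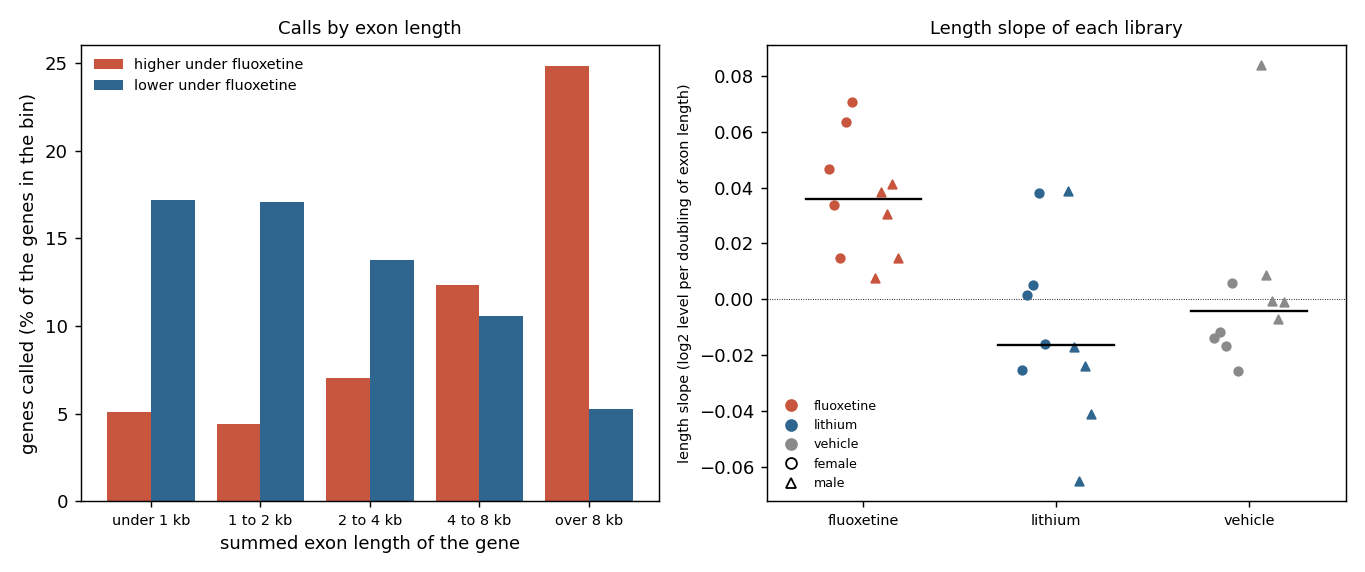
Left, percent of genes called higher or lower under fluoxetine than under lithium in HT, by summed exon length. Right, the length slope of each library labelled HT (log2 level per doubling of exon length), with females as circles, males as triangles and medians as bars; 24.8% of genes over 8 kb were called higher, and slopes reached 0.07 under fluoxetine and -0.06 under lithium.

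Among genes that respond to neuronal activity, more were called lower than higher under fluoxetine, and most were not called. Of 22 immediate early and rapid activity genes, 7 fell, 0 rose and 15 were not called, with a median log2 fold change of -0.37; 5 fell in males and 0 in females. Atf3, a stress-induced transcription factor, had 10.1, 23.2 and 47.1 normalized counts in fluoxetine libraries and 26.0, 67.4 and 153 in lithium libraries. Its groups overlapped, although each fluoxetine library lay below the lithium mean (-1.48 ± 0.31, adjusted p = 0.0017), the largest fall among genes named by size. Btg2, an early response gene that restrains cell division, had 234, 344 and 548 under fluoxetine and 402, 693 and 894 under lithium (-0.79 ± 0.15, adjusted p = 0.00099). Fosl2, a partner of Jun in the AP-1 factor, had 870.2, 1170.4 and 1377 under fluoxetine and 971, 1629 and 2468 under lithium (-0.52 ± 0.13, adjusted p = 0.0056), and Dusp1, a phosphatase that switches off MAP kinases, had 512, 618 and 998 and 506, 923 and 1274 in that order (-0.46 ± 0.14, adjusted p = 0.021). The count of 7 depended on single libraries. It was 4 without HT fluoxetine female 4, fluoxetine male 3, lithium male 3 or lithium male 4, 11 without fluoxetine male 1 or lithium male 5, and 15 without lithium female 5. It was 3 with depth or the length slope as a covariate and 11 by DESeq2.

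Late activity genes, which encode secreted and synaptic effectors, had 7 of 19 members lower, 1 higher and a median of -0.24. Gadd45b, which takes part in DNA demethylation, had 215, 265 and 348 normalized counts under fluoxetine and 239.8, 457 and 621 under lithium (-0.69 ± 0.14, adjusted p = 0.0014). Inhba, a subunit of activin A, had 354, 449 and 581 under fluoxetine and 501, 664 and 903 under lithium (-0.59 ± 0.11, adjusted p = 0.00091), and in both genes the groups overlapped. Vgf, a precursor of neuropeptides, had 4093, 4753 and 6529.9 under fluoxetine and 5677, 6822 and 7765 under lithium (-0.43 ± 0.09, adjusted p = 0.0012). Nrn1, neuritin, was the member that rose, at 6009, 7219 and 7725 under fluoxetine and 4387, 6003 and 6313 under lithium (0.30 ± 0.06, adjusted p = 0.0014). The late activity count was 2 with the length slope as a covariate.

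Of the 15 largest falls, 14 were in the RefSeq promoter table and 3 held a motif of the 4 searched, and these 3 are shown, chosen after the matches were seen. The motifs were the cAMP response element TGACGTCA, the E-box CACGTG, the sterol regulatory element TCACNCCAC and the heat shock element GAANNTTC, read on both strands and without overlap in these windows. Each window runs from 250 bases before to 50 after the start site (RefSeq, GRCm38.p6), with matches in capitals. Btg2 (chr1:134079106-134079405, minus strand) held a cAMP response element that begins 166 bases before its start, and 1.79% of all 32851 promoters in the table hold one. Hspb1 (chr5:135887669-135887968, plus strand) held heat shock elements that begin 117 and 97 bases before its start, a motif found in 7.86% of all promoters. Gadd45b (chr10:80929841-80930140, plus strand) held an E-box 185 bases before its start, found in 7.15% of all promoters. A match of letters is a description and no evidence of binding.
Btg2: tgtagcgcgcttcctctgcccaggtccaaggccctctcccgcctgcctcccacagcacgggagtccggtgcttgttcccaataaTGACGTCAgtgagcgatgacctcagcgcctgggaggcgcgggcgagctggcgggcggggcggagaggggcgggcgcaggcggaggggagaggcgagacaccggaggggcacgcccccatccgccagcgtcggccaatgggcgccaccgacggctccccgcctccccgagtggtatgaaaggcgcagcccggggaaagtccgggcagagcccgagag
Hspb1: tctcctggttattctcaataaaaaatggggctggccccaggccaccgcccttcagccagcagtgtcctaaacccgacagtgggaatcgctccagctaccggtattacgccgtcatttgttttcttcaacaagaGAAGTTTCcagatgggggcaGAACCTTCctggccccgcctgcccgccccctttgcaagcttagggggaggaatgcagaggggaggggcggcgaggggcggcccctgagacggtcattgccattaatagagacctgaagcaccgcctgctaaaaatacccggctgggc
Gadd45b: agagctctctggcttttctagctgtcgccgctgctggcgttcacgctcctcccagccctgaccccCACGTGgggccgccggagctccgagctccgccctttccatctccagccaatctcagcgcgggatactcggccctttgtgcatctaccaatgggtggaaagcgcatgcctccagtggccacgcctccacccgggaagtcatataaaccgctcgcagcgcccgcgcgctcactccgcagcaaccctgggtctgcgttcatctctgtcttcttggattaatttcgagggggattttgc

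Targets of Atf4, the transcription factor of the integrated stress response, had 10 of 26 members lower under fluoxetine and 0 higher, with a median of -0.16. Atf4 itself had 2274, 2847 and 3249 normalized counts in fluoxetine libraries and 3118, 3789.6 and 4720.1 in lithium libraries, with each fluoxetine library below the lithium mean (-0.42 ± 0.07, adjusted p = 0.00025). Sesn2, which links amino acid lack to mTORC1, had 318, 347 and 407 under fluoxetine and 399, 479 and 561 under lithium (-0.45 ± 0.06, adjusted p = 7.7e-05). Chac1, which breaks down glutathione, had 121, 139 and 151 under fluoxetine and 136, 206 and 246 under lithium (-0.49 ± 0.09, adjusted p = 0.0008). Atf5 moved likewise (-0.36 ± 0.08, adjusted p = 0.0022). The Atf4 target count was 9 with depth and 2 with the length slope as a covariate.

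ER chaperones and unfolded protein response genes had 5 of 24 members lower and 1 higher, a called share of 25%, near the 23.2% over all genes. Sdf2l1, a partner of the ER chaperone BiP, had 216, 308 and 373 under fluoxetine and 327, 431 and 589.6 under lithium (-0.59 ± 0.12, adjusted p = 0.0013), and Pdia6, a disulphide isomerase, had a smaller difference (-0.22 ± 0.06, adjusted p = 0.014). Both calls were lost with the length slope as a covariate, and that of Pdia6 also with depth. The count of 5 was 2 without fluoxetine female 4, fluoxetine male 3 or 4, lithium female 2 or lithium male 1, 2 or 3, and 3 without fluoxetine male 2 or 5 or lithium female 3. It was 1 with depth and 0 with the length slope as a covariate, and the higher count was 0 in 15 of the 20 omissions of 1 library. Cytosolic heat shock genes went both ways, with 4 of 20 higher (7 without lithium female 2) and 4 lower. Hspb1, the small heat shock protein whose promoter is shown above, had 75.6, 98.4 and 156 under fluoxetine and 124, 176 and 251 under lithium (-0.74 ± 0.14, adjusted p = 0.001). Hsp90aa1, the inducible Hsp90, had 28665, 32573 and 36552 under fluoxetine and 24240.3, 28225 and 32828 under lithium (0.20 ± 0.06, adjusted p = 0.012). Hspa4l, of the Hsp110 family, also rose (0.24 ± 0.05, adjusted p = 0.0016). The Hsp90aa1 call was lost with quantile normalization, depth or the length slope, and the Hspa4l call with the length slope. With depth as a covariate 1 heat shock gene was higher and 2 lower, and with the length slope 1 and 1.

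Genes of the pathways on which the drugs act were called in both directions. Over all genes tested 23.2% were called, 11.4% higher and 11.8% lower. Of 32 GSK3 and Wnt pathway genes, 7 were higher and 4 lower, a called share of 34.4%, with a median of 0.04. The lower count of this list was near the share over all genes. Ctnnb1, beta-catenin, the protein that GSK3 marks, had 15410.3, 16079.7 and 16708 normalized counts of mRNA under fluoxetine and 13999.9, 14537 and 15544 under lithium, a small rise (0.14 ± 0.03, adjusted p = 0.0018). Apc, the scaffold of the complex that degrades it, had 31306, 34086 and 43133 under fluoxetine and 21453, 27727 and 34418 under lithium (0.32 ± 0.07, adjusted p = 0.0015). Dvl1, which carries the signal from Wnt receptors, fell with no overlap, at 2218, 2736 and 2923 under fluoxetine and 2947, 3341 and 3824 under lithium (-0.34 ± 0.05, adjusted p = 0.00015). Notum, a secreted enzyme that inactivates Wnt ligands, also fell (-0.46 ± 0.09, adjusted p = 0.00091). Cxxc4, an inhibitor of Dishevelled, rose (0.39 ± 0.05, adjusted p = 1.7e-05). Of 24 inositol recycling and transport genes, 5 were higher and 4 lower, a called share of 37.5%. Isyna1, which makes inositol from glucose 6-phosphate, had 503, 722 and 762 under fluoxetine and 721, 891 and 1074 under lithium (-0.37 ± 0.07, adjusted p = 0.0013). Plcb1, a phospholipase C that cleaves phosphoinositides, rose (0.21 ± 0.05, adjusted p = 0.0025), as did Slc2a13, a carrier of inositol (0.24 ± 0.06, adjusted p = 0.0043). The groups overlapped in each of these 3 inositol genes. With the length slope as a covariate 2 Wnt pathway genes were higher and 2 lower, and 2 inositol genes were higher and 0 lower, with the Apc, Isyna1 and Plcb1 calls lost. Inositol genes had 2 higher with a replicate block, and 3 higher and 2 lower with depth.

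Among 17 serotonin receptor and transport genes, 2 were higher and 2 lower, a called share of 23.5%, near the 23.2% over all genes. Tph2, the enzyme of neuronal serotonin synthesis, which raphe neurons rather than cortical neurons express, was low at 26.2, 33.0 and 43.6 normalized counts under fluoxetine and 11.4, 19.4 and 38.6 under lithium (0.70 ± 0.20, adjusted p = 0.016), and its call was lost with depth as a covariate. Htr1a, the inhibitory serotonin 1A receptor, had 485, 552 and 690.0 under fluoxetine and 374, 468 and 610.4 under lithium (0.22 ± 0.08, adjusted p = 0.049). The higher count of this list was 1 in 15, and the lower count 1 or 0 in 11, of the 20 omissions of 1 library. The Htr1a call was lost in 15 of them. Htr5b had 27.2, 33.0 and 48.3 under fluoxetine and 32.8, 51.9 and 67.4 under lithium (-0.47 ± 0.15, adjusted p = 0.031), and its call was lost in 8 of the 20.

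In 5 lists of synaptic and channel genes more members were called higher than lower under fluoxetine. Called in either direction were 40% of presynaptic, 30% of GABA, 26.9% of postsynaptic, 25.8% of glutamate receptor and 23.1% of potassium channel genes. Over all genes tested the share was 23.2%, with 11.4% higher and 11.8% lower. Presynaptic vesicle release genes had 9 of 25 members higher and 1 lower, with a median of 0.15. Rims1, a scaffold of the active zone, had 10418, 11292 and 12791 normalized counts in fluoxetine libraries and 5844, 8267 and 9507 in lithium libraries, with no overlap (0.50 ± 0.07, adjusted p = 8e-05). Its paralog Rims2 had 3598, 3796 and 4619 under fluoxetine and 2848, 3104 and 3448 under lithium, also with no overlap (0.34 ± 0.05, adjusted p = 5e-05). Syn1, which tethers vesicles, had 20580.1, 24296 and 27663 under fluoxetine and 15635, 18782 and 21227 under lithium (0.37 ± 0.06, adjusted p = 0.00025), and Vamp2, the vesicle SNARE, rose less (0.21 ± 0.04, adjusted p = 0.0004). Of 26 postsynaptic scaffold genes 7 were higher and 0 lower, among them Dlgap1 (0.23 ± 0.04, adjusted p = 0.0005) and the adhesion protein Nlgn1 (0.29 ± 0.05, adjusted p = 0.00065). Of 31 glutamate receptor genes 7 were higher and 1 lower, among them Grin1, the obligate NMDA receptor subunit (0.28 ± 0.06, adjusted p = 0.001), and Grik2, a kainate receptor (0.19 ± 0.05, adjusted p = 0.0048). GABA receptor and synthesis genes had 5 of 20 higher and 1 lower, with 8 higher without fluoxetine female 2, fluoxetine male 5 or lithium female 2. Of 39 potassium channel genes 7 were higher and 2 lower. Kcnq3, of the M current, rose (0.35 ± 0.07, adjusted p = 0.00082). Kcnj4, the inward rectifier Kir2.3, had 2951, 3151 and 3525 under fluoxetine and 3569, 4125 and 4718 under lithium with no overlap (-0.38 ± 0.04, adjusted p = 2.4e-06). These lists hold long genes, with median summed exon lengths of 5756 bases for potassium channels to 9157 for postsynaptic scaffolds. Among all genes with over 8 kb of exon 24.8% were called higher, near the postsynaptic share. With the length slope as a covariate 12 presynaptic, 3 postsynaptic, 3 glutamate receptor, 3 GABA and 4 potassium channel genes were called higher, and with depth 4 postsynaptic genes.

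**Figure D3:**
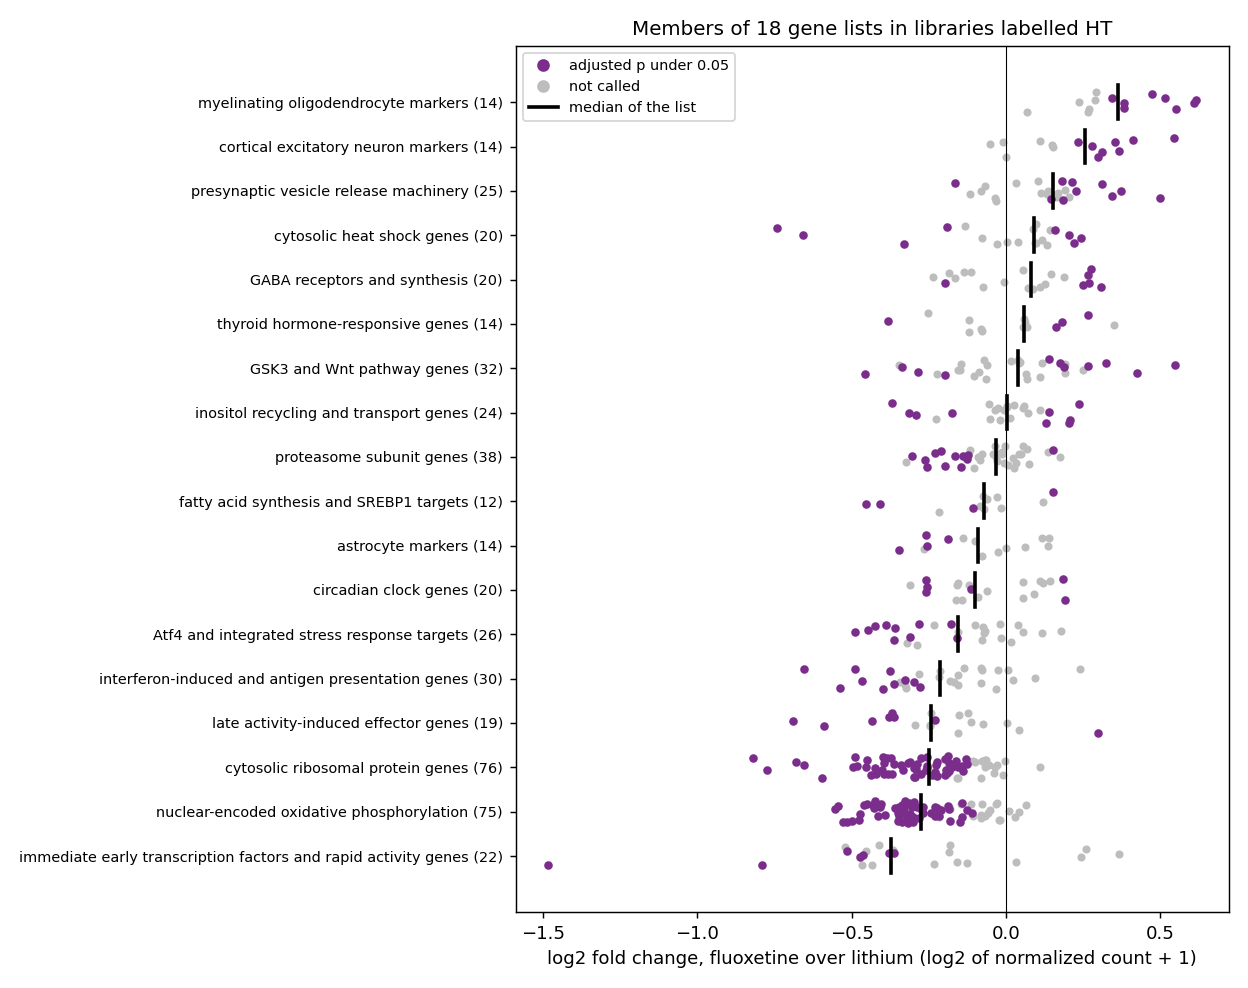
Log2 fold change, fluoxetine over lithium, of each tested member of 18 gene lists in HT (x axis, log2 of normalized count + 1), with called genes in purple, others in grey and the list median as a bar. Medians run from 0.36 for myelin markers to -0.37 for immediate early genes, and the ribosomal and respiratory lists hold 59 and 55 called falls.

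Myelin genes were higher under fluoxetine than under lithium. Of 14 markers of myelinating oligodendrocytes 8 rose, 0 fell and 6 were not called, with a median of 0.36, and the summed level ran from 116900 to 199618 normalized counts in fluoxetine libraries and from 90142.9 to 189827 in lithium libraries. Fa2h, which hydroxylates the fatty acids of myelin lipids, had 706, 899 and 1198 under fluoxetine and 421, 629 and 942 under lithium (0.62 ± 0.13, adjusted p = 0.0017). Ugt8a, which makes galactosylceramide, the main glycolipid of myelin, had 1775, 2138 and 2935 under fluoxetine and 1257, 1487 and 1966 under lithium (0.55 ± 0.10, adjusted p = 0.00041). Gjb1, connexin 32 of oligodendrocyte gap junctions, had 104, 149.9 and 214 and 62.9, 94.9 and 143 in that order (0.61 ± 0.13, adjusted p = 0.0023), and Ermn, a cytoskeletal protein of myelin, rose too (0.47 ± 0.14, adjusted p = 0.017). Each of these 4 genes had overlapping groups. Ppp1r14a, a phosphatase inhibitor chosen as one of the 15 largest rises, had 90.9, 104 and 150.1 under fluoxetine and 31.6, 67.9 and 123 under lithium (0.71 ± 0.17, adjusted p = 0.0044). Of 11 oligodendrocyte precursor markers 1 rose. With the length slope as a covariate 7 myelin markers rose and the median was 0.54, and with depth 5 rose.

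Cortical excitatory neuron markers had 8 of 14 members higher and 0 lower, with a median of 0.26. Nrn1, the late activity gene that rose, is also in this list and among these 8. Tbr1, a transcription factor of deep-layer neurons, had 3223, 4264 and 5311 under fluoxetine and 2398, 3293 and 3642 under lithium (0.41 ± 0.09, adjusted p = 0.0031). Bcl11b, of subcerebral projection neurons, had 2164, 2599.7 and 3059 under fluoxetine and 1557, 1977 and 2327 under lithium (0.36 ± 0.07, adjusted p = 0.00094), and Foxp2, of layer 6, had 286, 363 and 484 and 178, 210.3 and 379 in that order (0.54 ± 0.14, adjusted p = 0.0069). Of 9 claustrum and subplate markers 4 rose, among them Oprk1, the kappa opioid receptor, at 113, 199.9 and 292 under fluoxetine and 93.0, 121 and 163 under lithium (0.66 ± 0.16, adjusted p = 0.0041). Drd1, the dopamine D1 receptor, had 157, 255 and 453 under fluoxetine and 121, 168 and 212 under lithium (0.63 ± 0.17, adjusted p = 0.011). It was 1 of 2 striatal markers of 14 that rose, near the 11.4% higher over all genes. That count was 1 without fluoxetine female 3 or 4, fluoxetine male 4 or lithium male 3, and 5 by DESeq2. Striatal markers summed to 9372 to 19735 normalized counts under fluoxetine and 9323 to 12640 under lithium, and 0 of 14 olfactory bulb markers were called, though their median was -0.32. The part that the depth or region of the dissection plays in these neuronal differences was not tested beyond these marker values. With depth as a covariate 4 excitatory neuron markers rose, with the length slope 5, and with the olfactory bulb score 8. The Bcl11b, Foxp2 and Oprk1 calls were lost with the length slope.

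Other large rises included Atp10b, a lipid flippase, at 67.7, 88.9 and 108 under fluoxetine and 28.1, 57.1 and 83.4 under lithium (0.72 ± 0.14, adjusted p = 0.0012), and Chrna5, a nicotinic receptor subunit, at 41.2, 82.1 and 99.9 and 35.4, 49.0 and 66.8 in that order (0.64 ± 0.15, adjusted p = 0.0035). Nexn, an actin-binding protein, had 49.0, 68.0 and 127 under fluoxetine and 34.2, 47.1 and 58.6 under lithium (0.66 ± 0.15, adjusted p = 0.003). Tmem252 (0.69 ± 0.14, adjusted p = 0.0013), Zfp804b (0.67 ± 0.15, adjusted p = 0.0023), the bZIP factor Nfe2l3 (0.64 ± 0.16, adjusted p = 0.0057) and the pseudogene Znf41-ps (0.79 ± 0.15, adjusted p = 0.00084) completed this group with Pagr1a (1.34 ± 0.47, adjusted p = 0.041), whose call was lost in 13 of the 20 omissions of 1 library. Cenpe, a motor protein of the mitotic spindle, had 38.6, 64.1 and 84.3 under fluoxetine and 22.2, 40.6 and 51.6 under lithium (0.66 ± 0.14, adjusted p = 0.0023). It was 1 of 4 cell cycle genes of 30 that rose, with Mki67 (0.52 ± 0.15, adjusted p = 0.014) and Top2a (0.56 ± 0.19, adjusted p = 0.038), a topoisomerase of dividing cells. That share of 13.3% was near the 11.4% higher over all genes. The Top2a call was lost in 10 of the 20 omissions. With the length slope as a covariate 0 cell cycle genes were called.

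Among the large falls outside these lists, Plekhg4 (chr8:105373274-105382862), a guanine nucleotide exchange factor, had 61.5, 85.2 and 96.3 normalized counts in fluoxetine libraries and 106, 141 and 189 in lithium libraries. The groups did not overlap (-0.77 ± 0.11, adjusted p = 6.3e-05). Dok3, an adaptor that restrains immune receptor signals, had 143, 197 and 238 under fluoxetine and 215, 336 and 393 under lithium (-0.72 ± 0.10, adjusted p = 7.7e-05). Yjefn3 had 69.4, 89.7 and 104 under fluoxetine and 106, 141 and 195 under lithium with no overlap (-0.70 ± 0.09, adjusted p = 3.1e-05). Rasl11a, a small GTPase of the Ras family (-0.71 ± 0.14, adjusted p = 0.001), Alkal2, a ligand of the receptor kinase Alk (-0.70 ± 0.14, adjusted p = 0.0016), Tnfaip6, a hyaluronan-binding protein (-0.74 ± 0.16, adjusted p = 0.0023), Btbd17 (-0.77 ± 0.17, adjusted p = 0.0024) and Trim47, a ubiquitin ligase (-0.70 ± 0.16, adjusted p = 0.0029), fell with overlapping groups.

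Interferon-induced and antigen presentation genes had 10 of 30 members lower under fluoxetine and 0 higher, with a median of -0.22. Ifi27 had 207, 262 and 294 normalized counts under fluoxetine and 284, 364 and 420.1 under lithium (-0.49 ± 0.08, adjusted p = 0.00019). Irgm1, an immunity-related GTPase, had 169, 197 and 244 under fluoxetine and 205, 253 and 340.0 under lithium (-0.40 ± 0.08, adjusted p = 0.0018). H2-D1, a class I histocompatibility antigen, had 663, 811 and 929.8 under fluoxetine and 881, 948 and 1452 under lithium (-0.38 ± 0.08, adjusted p = 0.0019). Bst2, tetherin, was low at 26.4, 64.0 and 81.4 under fluoxetine and 78.0, 92.9 and 131 under lithium (-0.65 ± 0.16, adjusted p = 0.005). Of 15 microglia and macrophage markers 4 fell, among them the complement genes C1qb (-0.25 ± 0.05, adjusted p = 0.0019) and C1qc (-0.28 ± 0.06, adjusted p = 0.002) and Pf4, of border macrophages (-0.51 ± 0.16, adjusted p = 0.023). Microglial markers summed to 11902 to 14849 normalized counts under fluoxetine and 12707 to 17755 under lithium. Of 14 astrocyte markers 4 fell, among them Fgfr3 (-0.35 ± 0.05, adjusted p = 0.00014) and Gjb6, connexin 30 (-0.25 ± 0.07, adjusted p = 0.014). With the length slope as a covariate 2 interferon, 0 microglial and 1 astrocyte gene fell, and the Bst2, H2-D1, C1qb, C1qc, Pf4 and Gjb6 calls were lost. With depth 5 interferon genes fell, and the Pf4 call was lost.

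Cholesterol synthesis and SREBP2 target genes had 4 of 25 members lower and 0 higher, with a median of -0.03. That is 16% lower, against 11.8% lower over all genes. Srebf2, the factor that drives this pathway (-0.18 ± 0.06, adjusted p = 0.03), and Acat2, of its first step (-0.20 ± 0.05, adjusted p = 0.0059), fell. The count was 9 without HT lithium female 4, 7 by DESeq2 or with depth as a covariate, and 0 with the length slope as a covariate. The Srebf2 call was also lost without HT fluoxetine female 4 or HT lithium male 2. Glucocorticoid-induced genes had 4 of 22 lower and 1 higher, among them Tsc22d3, also called Gilz (-0.24 ± 0.07, adjusted p = 0.02). Their called share of 22.7% was near the 23.2% over all genes. That list had 2 lower and 0 higher with depth, and 0 of either with the length slope as a covariate. Clock genes had 4 of 20 lower and 2 higher, among them Per2 (-0.26 ± 0.07, adjusted p = 0.012), Cry1 (-0.26 ± 0.09, adjusted p = 0.032) and Ciart (-0.25 ± 0.07, adjusted p = 0.017), all repressors within the clock. The lower clock count was 2 without fluoxetine male 2 or 3, lithium female 2 or lithium male 2 or 3, 2 with depth and 0 with the length slope as a covariate. The higher clock count was 0 or 1 in 18 of the 20 omissions of 1 library, and the Cry1 call was lost in 6 of them.

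Levels under vehicle show on which side of vehicle-treated HT cortex each drug lay. Both drug comparisons used the same 10 vehicle libraries and are set side by side only. Vehicle libraries had 26.6 to 31.0 recovered reads in the units given above, below all fluoxetine libraries, at 32.8 to 36.6. In females vehicle also lay below lithium, at 32.1 to 35.2. In males vehicle, at 26.7 to 29.2, lay within the lithium range of 26.6 to 33.5. Neither depth nor the length slope was a covariate in these fits, and their part in the counts below was not tested. Against vehicle, 1446 of 17472 genes (8.28%) were called under fluoxetine, 681 (3.9%) higher and 765 (4.38%) lower, and 2142 (12.3%) under lithium, 1070 (6.12%) higher and 1072 (6.14%) lower. Ribosomal protein genes had 42 of 76 lower under fluoxetine and 8 higher under lithium. Respiratory genes had 36 of 75 lower under fluoxetine and 19 higher under lithium. Calls against vehicle also went along with length under fluoxetine. Of genes with over 8 kb of exon, 9.40% were higher and 1.79% lower under fluoxetine, and 6.30% and 8.27% under lithium. Of genes under 1 kb, 2.15% were higher and 7.58% lower under fluoxetine, and 3.00% and 1.57% under lithium. Rps29 had 1760.0, 2955 and 3685 normalized counts in vehicle libraries, with a median between those of the drug groups (fluoxetine -0.33 ± 0.10, adjusted p = 0.031; lithium 0.35 ± 0.10, adjusted p = 0.018). Myelin markers had 0 of 14 called under fluoxetine and 9 lower under lithium. Ugt8a, for example, had 1709, 2191 and 2680.3 under vehicle, with 0.03 ± 0.10, adjusted p = 0.88 for fluoxetine and -0.52 ± 0.10, adjusted p = 0.00095 for lithium. Plekhg4 had 42.8, 67.0 and 90.5 under vehicle, with 0.32 ± 0.13, adjusted p = 0.12 for fluoxetine and 1.09 ± 0.13, adjusted p = 1.9e-05 for lithium. Late activity genes had 3 of 19 higher under fluoxetine and 9 higher under lithium, and Atf4 targets had 1 and 8 of 27 higher in that order. ER chaperones had 9 of 24 higher under fluoxetine and 16 higher under lithium. Cholesterol genes had 13 of 25 lower under fluoxetine and 9 lower under lithium. Glucocorticoid-induced genes had 6 of 22 higher under fluoxetine and 10 higher under lithium. In the late activity, Atf4, ER, cholesterol and glucocorticoid lists the called members of both drugs lay on the same side of vehicle. Cortical excitatory markers had 4 of 14 higher under fluoxetine and 1 lower under lithium. Striatal markers had 0 of 16 called under fluoxetine and 9 lower under lithium, with medians of -0.41 under fluoxetine and -0.66 under lithium, and all 16 lay below vehicle under both drugs. Olfactory bulb markers had 0 of 14 called under either drug, with medians of -0.81 under fluoxetine and -0.32 under lithium.

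**Figure D4:**
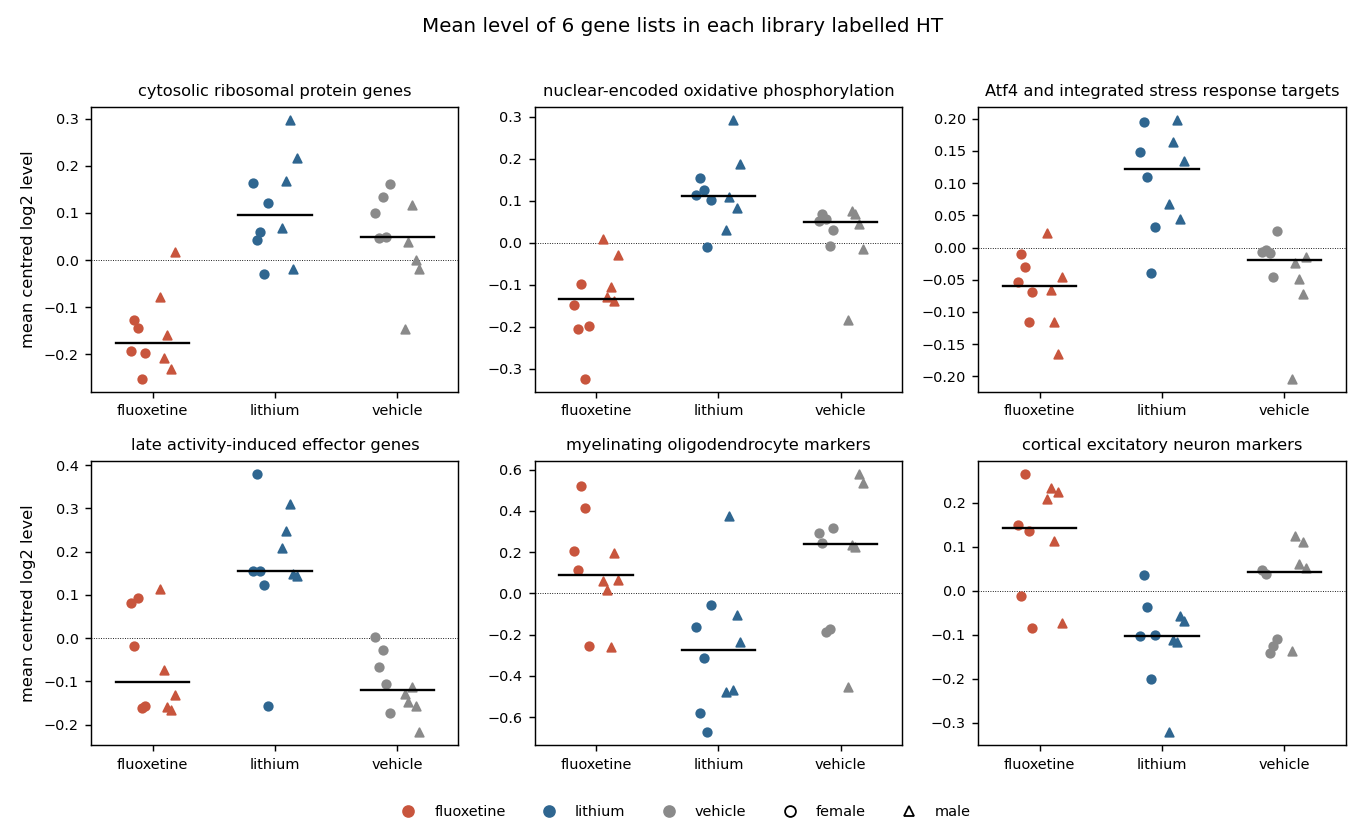
Mean centred log2 level of the tested members of 6 gene lists (y axes) in each library labelled HT, by treatment, with females as circles, males as triangles and the median of 10 libraries as a bar. In all 6 lists some fluoxetine and lithium libraries overlap, and for the ribosomal, respiratory, Atf4 and late activity lists the fluoxetine median lies below the lithium median.

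Both sexes were examined apart. In males 2450 genes (14.3%) were called, 1252 (7.3%) higher and 1198 (6.98%) lower under fluoxetine, and in females 674 (3.93%), 235 (1.37%) higher and 439 (2.56%) lower. Respiratory genes had 37 of 75 lower in males and 46 in females, and ribosomal protein genes 46 of 76 lower in males and 31 in females. Interferon genes had 11 of 30 lower in males and 0 called in females, and myelin markers had 1 of 14 higher in males and 4 in females. Genes with the smallest p in males were Unc45a, a myosin chaperone (-0.64 ± 0.07, adjusted p = 5.4e-05), Kcnj4 (-0.42 ± 0.05, adjusted p = 0.00037), Cxxc4 (0.47 ± 0.06, adjusted p = 0.00066), Med22, of the Mediator complex (-0.46 ± 0.06, adjusted p = 0.00085), and Cadm2, a synaptic adhesion protein (0.48 ± 0.07, adjusted p = 0.00085). In females they were Rpl39 (-0.72 ± 0.07, adjusted p = 1.1e-05), Atp5k, a subunit of ATP synthase (-0.72 ± 0.07, adjusted p = 1.1e-05), Cox7a2 (-0.60 ± 0.06, adjusted p = 1.1e-05), Rpl22l1 (-0.95 ± 0.12, adjusted p = 0.0002) and Atp5e (-0.57 ± 0.07, adjusted p = 0.0002). Of 444 genes called in both sexes, 18.1% of the male and 65.9% of the female calls, 442 had the same sign. The test of the difference itself called 1 gene (0.00583%), the predicted gene Gm9762, while 900 genes (5.25%) had an unadjusted p under 0.05, so a larger count in males does not show a larger response. The 5 named genes with the smallest p in that test, none of them called, were Snurf (0.55 ± 0.10, adjusted p = 0.0022 in males, -0.21 ± 0.10, adjusted p = 0.26 in females), mt-Atp8 (0.33 ± 0.09, adjusted p = 0.017 in males, -0.27 ± 0.09, adjusted p = 0.091 in females), Bc1 (0.96 ± 0.21, adjusted p = 0.0054 in males, -0.29 ± 0.21, adjusted p = 0.48 in females), Ctsz (-0.35 ± 0.07, adjusted p = 0.0049 in males, 0.09 ± 0.07, adjusted p = 0.56 in females) and Ccdc158 (1.09 ± 0.24, adjusted p = 0.0058 in males, -0.30 ± 0.24, adjusted p = 0.53 in females). The male count was 1633 without fluoxetine male 2, 1418 without fluoxetine male 4, 1550 without lithium male 3 and 1245 with the length slope as a covariate. The female count fell to 144 without fluoxetine female 4, 391 without fluoxetine female 1, 325 without fluoxetine female 3, 276 without lithium female 1, 382 without lithium female 2 and 357 without lithium female 3, and to 93 with the length slope as a covariate.

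The same contrast in WT mice used libraries that the HT comparison did not use. In WT, 1215 of 17103 genes (7.1%) were called, 534 (3.12%) higher and 681 (3.98%) lower under fluoxetine. Of 16954 genes tested in both genotypes, 799 were called in both, which is 20.1% of the HT calls and 65.8% of the WT calls among them, and all 799 had the same sign, 336 higher and 463 lower. Log2 fold changes in HT and WT had Pearson's r = 0.60 and Spearman's rho = 0.63 across genes, which are not independent replicates. Respiratory genes had 27 of 75 lower in WT, ribosomal protein genes 9 of 76, immediate early genes 10 of 22 (with 1 higher), late activity genes 8 of 19 and Atf4 targets 7 of 26. Cortical excitatory neuron markers had 1 of 14 higher in WT (median 0.08), and interferon genes 2 of 30 lower (median -0.07). Presynaptic genes had 5 of 25 higher and 2 lower, GABA genes 1 of 20 higher, and potassium channel genes 1 of 39 higher and 1 lower. Glucocorticoid-induced genes had 10 of 22 lower in WT, with a median of -0.32. Plekhg4 had WT libraries at 66.4, 83.5 and 121 under fluoxetine and 101, 137 and 159.9 under lithium (-0.61 ± 0.11, adjusted p = 0.0035). Unc45a (-0.36 ± 0.05, adjusted p = 0.001), Atf4 (-0.33 ± 0.03, adjusted p = 3.7e-05), Ctnnb1 (0.23 ± 0.03, adjusted p = 0.001) and Rasl11a (-0.74 ± 0.10, adjusted p = 0.0013) were among the smallest p in WT. The interaction of drug and genotype called 0 of 17567 genes (0%) by limma, 0 by DESeq2 and 0 by edgeR, with 1223 genes (6.96%) at an unadjusted p under 0.05, so no gene here is shown to respond differently by genotype. Among the smallest p of that test were Sec62 (0.28 ± 0.05, adjusted p = 0.00022 in HT, 0.04 ± 0.04, adjusted p = 0.6 in WT), Dph6 (0.33 ± 0.05, adjusted p = 0.00019 in HT, 0.08 ± 0.04, adjusted p = 0.25 in WT), Fap (0.52 ± 0.11, adjusted p = 0.0022 in HT, -0.10 ± 0.10, adjusted p = 0.6 in WT), Hsdl1 (-0.18 ± 0.04, adjusted p = 0.004 in HT, 0.02 ± 0.04, adjusted p = 0.82 in WT) and Nrn1 (0.30 ± 0.06, adjusted p = 0.0014 in HT, -0.04 ± 0.05, adjusted p = 0.63 in WT). Without WT fluoxetine male 2, the library with the length slope of -0.20, the WT contrast called 3056 of 17072 genes (17.9%), 1473 (8.63%) higher and 1583 (9.27%) lower. Of the 3056, 1829 were also called in HT (46.1% of the HT and 59.9% of the WT calls), 1828 with the same sign, and Pearson's r across genes was 0.61. Respiratory genes then had 61 of 75 lower in WT, ribosomal protein genes 44 of 76, late activity genes 11 of 19, Atf4 targets 12 of 26 (with 2 higher), glucocorticoid-induced genes 15 of 22 and immediate early genes 10 of 22 (with 1 higher). Without that library the length slopes of the drugs did not overlap within a sex. In WT females they ran from 0.03 to 0.06 under fluoxetine and -0.03 to -0.01 under lithium. In WT males they ran from 7e-05 to 0.02 under fluoxetine and -0.06 to -0.0008 under lithium. The length slope was not a covariate in this fit, and its part in these counts was not tested. The WT count was 804 without WT fluoxetine female 5, 745 without WT fluoxetine male 5 and 766 without WT lithium female 1.

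**Figure D5:**
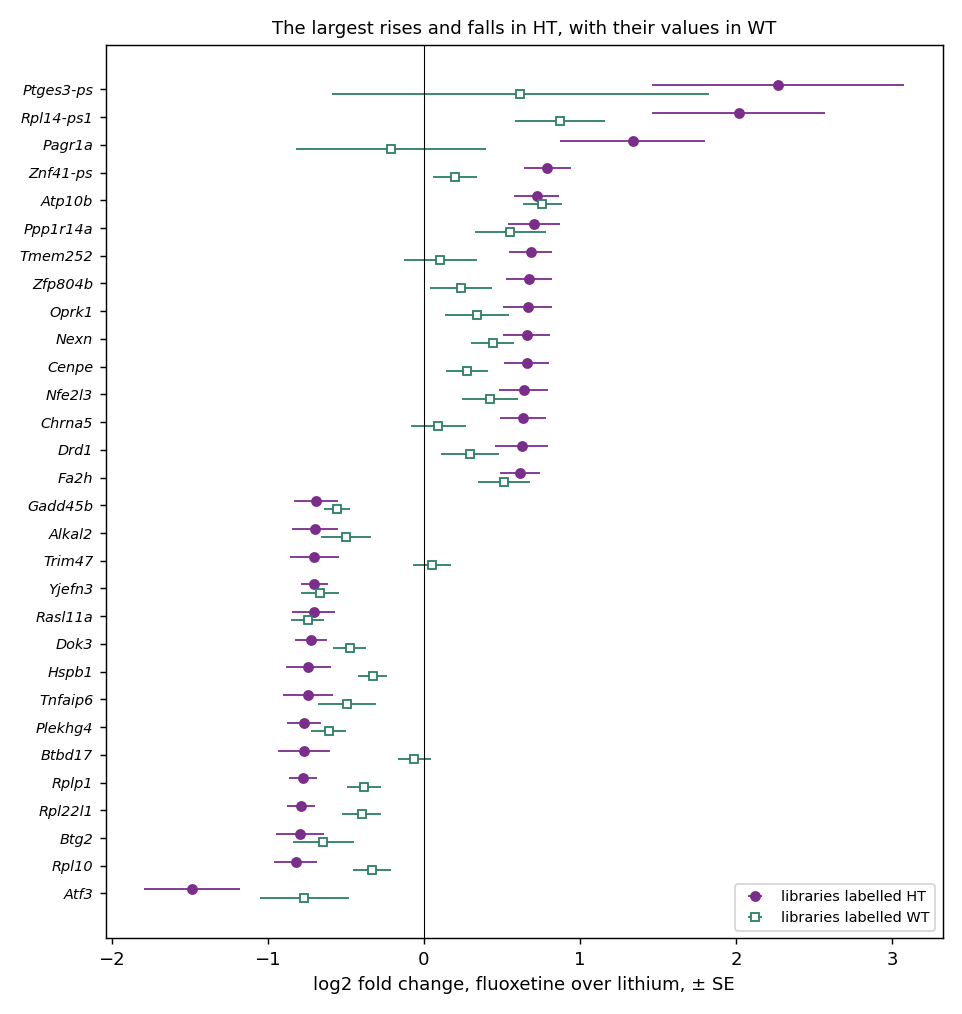
Log2 fold change, fluoxetine over lithium, ± SE (x axis) of the 15 largest rises and 15 largest falls in HT (filled circles), with the same contrast in WT (open squares, 20 other libraries). The genes were chosen on their HT values, so their HT sizes are a description; Atp10b, Plekhg4, Rasl11a and Yjefn3 had WT values of 0.76, -0.61, -0.74 and -0.66.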

How the data were processed

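Per the labels' protocols, a TruSeq Stranded mRNA kit made the libraries. The tools, per the submitters' processing notes, were Salmon 0.11.2, R 3.6.0 and DESeq2 1.19.11 on GRCm38, and use of strand is not given in the sources used here, so overlapping and antisense genes are uncertain. The deposited table holds signal values, counts the authors divided by size factors, for 18088 genes in 60 libraries. All values (100%, within 0.01) were whole reads times a step per library, so reads could be recovered. The main test was limma 3.58.1 (R 4.3.3) with a mean-variance trend on log2(value + 1), drug plus sex, over genes that reached 10 normalized counts in 5 or more libraries. This left 17153 genes and removed 935, and p-values were adjusted by Benjamini-Hochberg over all genes tested. DESeq2 1.42.0 and edgeR 4.0.16 on the recovered reads were alternatives, as were other filters, pseudocounts, scalings, covariates and the omission of each library. The scripts were tested on simulated data. Replicates differed by more than sampling noise.

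Members and gene lists were chosen with earlier results of these data known. Named genes were Trip12, the 15 largest rises and 15 largest falls among called genes averaging at least 50 normalized counts, up to 4 called members of each list with the smallest p, and the 5 smallest p of the other comparisons; some genes the rule names are not printed, and unnamed symbols were left out. The promoter choice departed from the written rule, since 3 promoters were taken for holding a motif.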

Additional observations from a re-analysis of the deposited data

Results flagged for a closer look

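For each gene named, the 5 libraries of each drug and sex were searched for 1 library far from the others, with a gap to its nearest neighbour of over 0.71 of the group's range on the log2 scale. This picked out 31 of 476 groups, and chance gives about 1 in 20.

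Cry1 in HT fluoxetine female 2 had 476 normalized counts, against 425 to 435 in the other 4 libraries of its group, a gap of 0.805 of the range. Cyc1 in HT lithium male 3 had 4585 normalized counts, against 4053 to 4151 in the other 4 libraries of its group, a gap of 0.805 of the range. Acta2 in HT lithium female 1 had 493 normalized counts, against 385 to 405 in the other 4 libraries of its group, a gap of 0.793 of the range. Rpl10 in HT fluoxetine female 5 had 917 normalized counts, against 437 to 526 in the other 4 libraries of its group, a gap of 0.75 of the range. Also above the rest of their groups were Vamp2 in HT lithium female 5 (0.745), Nlgn1 in HT lithium male 4 (0.737), Znf41-ps in HT fluoxetine female 4 (0.728), Rims2 in HT fluoxetine male 4 (0.723) and C1qb in HT lithium female 1 (0.712).

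Ugt8a in HT fluoxetine male 3 had 1804 normalized counts, against 2103 to 2169.9 in the other 4 libraries of its group, a gap of 0.829 of the range. Ptges3-ps in HT lithium female 1 had 0 normalized counts, against 41.3 to 94.9 in the other 4 libraries of its group, a gap of 0.82 of the range. Tmem252 in HT fluoxetine female 2 had 90.0 normalized counts, against 123 to 132 in the other 4 libraries of its group, a gap of 0.82 of the range. Rpl10 in HT lithium female 4 had 728 normalized counts, against 1128 to 1248 in the other 4 libraries of its group, a gap of 0.813 of the range. Also below the rest of their groups were Dok3 in HT fluoxetine male 4 (0.802), Nlgn1 in HT fluoxetine male 5 (0.8), Atp5e in HT lithium female 4 (0.78), Rasl11a in HT fluoxetine male 2 (0.77) and Rplp1 in HT fluoxetine female 4 (0.767). Further below the rest of their groups were Dvl1 in HT fluoxetine male 4 (0.763), Atf5 in HT lithium male 4 (0.762), Trim47 in HT fluoxetine male 4 (0.755), Kcnq3 in HT fluoxetine male 5 (0.747) and Sdf2l1 in HT fluoxetine female 4 (0.747). Further below the rest of their groups were Rpl37a in HT fluoxetine female 4 (0.741), Nlgn1 in HT fluoxetine female 2 (0.727), Bc1 in HT fluoxetine male 2 (0.725), Fosl2 in HT fluoxetine female 4 (0.72) and Srebf2 in HT lithium male 1 (0.717). Further below the rest of their groups were Btbd17 in HT fluoxetine male 4 (0.715), Hspa4l in HT lithium male 5 (0.715) and Ermn in HT fluoxetine male 3 (0.712).

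The drug effect differed between males and females in 1 gene by limma's interaction test, the predicted gene Gm9762, whose log2 fold change in males minus that in females was 12.26 (adjusted p = 0.000376). In males it had 141, 237 and 309 normalized counts under fluoxetine (lowest, median and highest) and 0 in all 5 libraries under lithium. In females it had 0, 0 and 118 under fluoxetine and 81.2, 139 and 254 under lithium. Under vehicle 4 of 5 male libraries and all 5 female libraries were at 0. Such all-or-none values in single libraries make the size of the difference depend on the pseudocount.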

How the results depend on the processing

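The count of 3973 genes called in HT was 1645 with each library's length slope as a covariate, and the cause was not tested; the other 33 alternatives kept it within 1.5 times, with 3374 to 4032 on leaving out single libraries, 3332 with a replicate block and 3141 with depth as a covariate. The female count of 674 was 1316 by DESeq2, 1019 in a fit over 60 libraries, 328 with a replicate block, 1018 with array weights, 93 with the length slope and 1127 with the olfactory bulb score, and ran from 144 (without fluoxetine female 4) to 808 on leaving out single libraries. The male count of 2450 was 1626 with a replicate block and 1245 with the length slope, and 1418 to 2723 on leaving out single libraries. The interaction of drug and sex called 5 genes by DESeq2, 0 by edgeR and 3 over 60 libraries, and 1 to 1 on leaving out single libraries. The WT count of 1215 was 1849 by DESeq2, 619 with a replicate block and 3976 with array weights, and 745 to 3056 on leaving out single libraries. The interaction of drug and genotype stayed at 0 in its 54 alternatives, with 0 to 0 on leaving out single libraries. The length slope and olfactory bulb score were chosen after seeing the data. Shared replicate numbers gave no clear sign of pairing between the HT fluoxetine and lithium libraries. Same-numbered libraries of a sex correlated at -0.26 to 0.24, over 0.1 in 4 of 10 pairs, and 2 of 10 correlated best with their own number. This check cannot show whether litters or batches were shared.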

Other observations

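Several gene groups outside the comparisons above were also measured in the HT contrast, in which 11.4% of all genes tested were higher and 11.8% lower. Fatty acid synthesis genes had 3 of 12 members lower under fluoxetine, 1 higher and a median log2 fold change of -0.07. Fasn, fatty acid synthase, had 5759.7, 6894 and 8574 normalized counts under fluoxetine and 7793, 9069 and 11527 under lithium (-0.41 ± 0.07, adjusted p = 0.00055, limma), and Srebf1, the factor that drives it, fell with overlapping groups (-0.45 ± 0.11, adjusted p = 0.0051), a call lost with depth as a covariate. Thyroid hormone-responsive genes had 3 of 14 higher and 1 lower, and 0 higher with depth. Of 14 Hedgehog pathway genes 2 were higher and 1 lower; the 2 became 0 with the length slope as a covariate and 0 or 1 in 15 of the 20 omissions of 1 library. Of 8 neurotrophin and receptor genes 1 was higher and 1 lower.

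Among other cells, 1 of 11 oligodendrocyte precursor markers was called, Enpp6, of newly forming oligodendrocytes, at 427, 479.8 and 640.2 under fluoxetine and 262, 339 and 562 under lithium (0.50 ± 0.11, adjusted p = 0.0029). Endothelial and mural markers had 4 of 20 higher and 1 lower, with Acta2 of smooth muscle higher (0.37 ± 0.10, adjusted p = 0.011) and Ly6c1 of endothelium lower (-0.34 ± 0.08, adjusted p = 0.004), a call lost with the length slope, under which 2 endothelial and mural markers were higher and 0 lower. Of 15 interneuron markers 1 fell, Vip (-0.18 ± 0.05, adjusted p = 0.019), a call also lost with the length slope. Of 14 meningeal fibroblast and 6 blood cell markers 0 were called by limma, and of 6 choroid plexus and ependymal markers 2 were higher and 1 lower (0 and 0 with depth or a replicate block, and 0 or 1 higher in 18 and 0 lower in 7 of the 20 omissions), at low summed counts of 316 to 374 under fluoxetine and 324 to 412 under lithium.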
